A study of Mus musculus with 12 samples.

Results

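The genes described here are 9 apolipoproteins, Apoa1, Apoa2, Apoa4, Apoa5, Apob, Apoc2, Apoc3, Apoe and Apom, together with Mttp, which encodes the microsomal triglyceride transfer protein. They were taken by name, and every probeset that the array's annotation assigns to exactly 1 of these 10 genes was used. That gave 17 of the 45037 probesets tested, and 10 of the 18193 genes that have a probeset of their own. Apoa1 was read by 4 probesets, Apoa4, Apob, Apom and Mttp by 2 each, and the others by 1, and each gene is represented by its brightest probeset.

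Each array, a 1-colour Affymetrix mouse array, carried liver RNA of a single animal. The 12 arrays form 4 groups of 3 animals: wild-type mice given vehicle, wild-type mice given tunicamycin (TM), Atf6a-/- mice given vehicle, and Atf6a-/- mice given TM. TM blocks N-linked glycosylation and so causes misfolding of proteins in the endoplasmic reticulum (ER). It was injected into the peritoneal cavity at 2 mg/kg in 150 mM dextrose, vehicle was the dextrose alone, and livers were taken 8 h later. The Atf6a-/- animals lack ATF6α, a transcription factor of the unfolded protein response (UPR), and the labels call age and sex of all animals variable without giving either per animal. Whether littermates, cages or hybridisation days were shared is not given in the sources used here, so the animals were treated as independent. The p-values rest on the spread between animals of a group, pooled over the 4 groups and moderated by that of all probesets. The material is whole liver homogenate, in which fewer cells of a type and less RNA per cell cannot be told apart.

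Apolipoproteins are the protein part of the particles that carry lipid in plasma. Hepatocytes add triglyceride to the nascent apolipoprotein B chain in the ER, a step that needs the microsomal triglyceride transfer protein, and secrete the product as very low density lipoprotein (VLDL). Exchangeable apolipoproteins on VLDL and high density lipoprotein (HDL) then activate or restrain lipoprotein lipase, bind receptors, and accept cholesterol from cells.

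TM was compared with vehicle in each genotype, the genotypes were compared at each treatment, and the log2 fold changes with TM were compared between genotypes, which makes 5 comparisons. Values are log2 signals as deposited, and a gene was called at an adjusted p below 0.05 in limma's test over all probesets together with a change above 1.5-fold. Over all tested probesets, pairs of arrays correlated at 0.958 or above. All 12 UPR targets examined, such as the chaperone gene Hspa5 and the stress-induced factor Ddit3, were called higher with TM in wild-type animals, and 11 of the 12 in Atf6a-/- animals. The probeset of Atf6 read 8.74, 9.47 and 8.90 in wild-type vehicle livers, 10.75, 11.16 and 11.01 in wild-type TM livers, 7.03, 7.15 and 7.79 in Atf6a-/- vehicle livers, and 10.19, 9.76 and 10.50 in Atf6a-/- TM livers. It was lower in Atf6a-/- than in wild-type livers at each treatment with no overlap, but it was higher with TM than with vehicle in both genotypes, and where it lies relative to the deleted part of the gene is not given in the sources used here, so it is a weak check of genotype. Y-linked transcripts were present on 1 array of each group, namely wild-type vehicle animal 2, wild-type TM animal 1, Atf6a-/- vehicle animal 3 and Atf6a-/- TM animal 2. Of 9 hepatocyte markers 0 were called lower and 1, Tat, was called higher in each genotype. The log2 of their summed linear signals, to which the brightest markers contribute most, was 17.26 to 17.30 with vehicle and 17.31 to 17.37 with TM in wild-type livers. In Atf6a-/- livers it was 17.24 to 17.35 and 17.39 to 17.43. The sum was thus slightly higher with TM without overlap, and its part in the results below was not tested. Called lower in wild-type and Atf6a-/- animals were 2 and 1 of 6 stellate cell markers, 1 and 0 of 7 endothelial markers (with 1 higher in Atf6a-/- animals), 0 and 1 of 4 cholangiocyte markers, 0 and 1 of 5 lymphocyte markers and 0 and 0 of 5 neutrophil markers. Of all genes, 6.9% and 8.21% were called lower in wild-type and Atf6a-/- animals. On the same scale, the lymphocyte sums were 8.66 to 9.42 with vehicle and 8.36 to 8.53 with TM in wild-type livers, and 8.67 to 9.11 and 8.02 to 8.48 in Atf6a-/- livers. The cholangiocyte sums were 7.81 to 7.90 and 7.61 to 7.71 in wild-type, and 7.68 to 7.99 and 7.48 to 7.63 in Atf6a-/- livers, so both lists were lower with TM without overlap, and their part in the results below was not tested.

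The DNA just upstream of the 5 genes called lower with TM in at least 1 genotype is shown first, so that their start regions can be compared. RefSeq's promoter table for GRCm38.p6 holds windows of 300 bases, 250 before and 50 after a transcript start, for 9 of the 10 genes in 13 windows. From these windows only bases before the start that lie outside Apoc4, Trmt10a and the gene itself are printed, 5′ to 3′ on the strand of the gene. They come from chr9:46240594-46240843 (plus strand) for Apoa4, chr12:7977427-7977628 (plus strand) for Apob, chr7:19677942-19678083 (minus strand) for Apoc2, chr17:35131802-35132051 (minus strand) for Apom and chr3:138143419-138143447 (minus strand) for Mttp. Capitals mark matches, on either strand, to 10 short motifs spelled out below.
Apoa4: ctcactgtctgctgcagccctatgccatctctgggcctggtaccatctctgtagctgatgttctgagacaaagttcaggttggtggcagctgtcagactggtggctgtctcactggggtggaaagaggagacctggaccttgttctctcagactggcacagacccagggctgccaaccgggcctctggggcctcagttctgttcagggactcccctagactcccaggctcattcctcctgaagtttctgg
Apob: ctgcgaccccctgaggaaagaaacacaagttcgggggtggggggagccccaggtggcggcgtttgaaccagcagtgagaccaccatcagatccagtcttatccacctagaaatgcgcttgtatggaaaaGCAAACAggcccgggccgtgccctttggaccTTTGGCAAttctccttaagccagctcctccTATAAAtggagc
Apoc2: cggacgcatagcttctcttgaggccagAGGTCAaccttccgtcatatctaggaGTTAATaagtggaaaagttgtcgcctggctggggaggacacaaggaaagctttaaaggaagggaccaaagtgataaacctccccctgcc
Apom: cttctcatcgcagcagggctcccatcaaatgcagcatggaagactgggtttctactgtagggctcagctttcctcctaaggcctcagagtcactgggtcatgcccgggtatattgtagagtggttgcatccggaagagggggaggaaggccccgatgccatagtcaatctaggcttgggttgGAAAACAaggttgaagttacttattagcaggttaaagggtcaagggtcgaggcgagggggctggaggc
Mttp: ACGTCAtcggactgcgctaactccaaacc

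The motifs searched were CAAAGTCCA (an HNF4 site), AGGTCA (a nuclear receptor motif), GTTAAT (an HNF1 motif), TGTTTNC (FOXA), TTGCNNAA (C/EBP), CCAAT (the CCAAT box), CCACG (an element bound in UPR genes), TATAAA (the TATA box), TCACNCCAC (a sterol element) and TGACGT (the core of a cyclic AMP response element). In the Apoc2 run, the stretch between Apoc4 and Apoc2, AGGTCA lay 115 to 110 bases before the start and GTTAAT 89 to 84 bases before it. AGGTCA is held by 16.3% of all 32851 promoter windows, and GTTAAT by 7.1%. The short run before Mttp, which shares its upstream DNA with the divergent gene Trmt10a, began with the reverse complement of TGACGT at 29 to 24 bases before the start, a motif held by 7.51% of windows. FOXA matches stood before Apob and Apom, and 7 of the 13 windows of the 9 genes held one, as did 20.5% of all windows. The Apob run also held a C/EBP match and a TATA box, which 10.8% and 13.6% of windows hold. Upstream of Apoa4 none of the 10 motifs was found. No window of the 9 genes held the 9 letters of the HNF4 site or of the sterol element, which are rare overall at 0.475% and 1.24% of windows. CCACG stood in 4 of the 13 windows, those of Apoa5, Apoc2 and Mttp, and in 32.8% of all windows. CCAAT stood in 2 of the 13, both of Apoa2, and in 37.4% of all windows. Neither occurred in a printed run, but the runs are shorter than the windows. The Apob run ends 49 bases before the start its window is set on, because RefSeq places the gene from there on. These matches describe the letters only, since binding was not measured.

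In wild-type animals TM lowered 3 of the 10 genes, Apoa4, Apoc2 and Mttp, and raised none. Among all 18193 genes, 6.9% were called lower and 8.92% higher. All 10 genes nevertheless had a log2 fold change below 0, with a median of -0.62 against -0.06 over all genes. In Atf6a-/- animals 4 of the 10 genes were called lower, Apoa4, Apob, Apoc2 and Apom, and none higher. There 8.21% of all genes were called lower and 13.1% higher, and the median was -0.52 for the 10 genes against -0.10 over all genes. Without the fold requirement, 4 of the 10 were lower at an adjusted p below 0.05 in wild-type animals (11.9% of all genes) and 7 of the 10 in Atf6a-/- animals (17.5% of all genes). The genes in these counts differ partly because values fell on either side of a threshold, and the difference between genotypes was tested separately below.

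**Figure D1:**
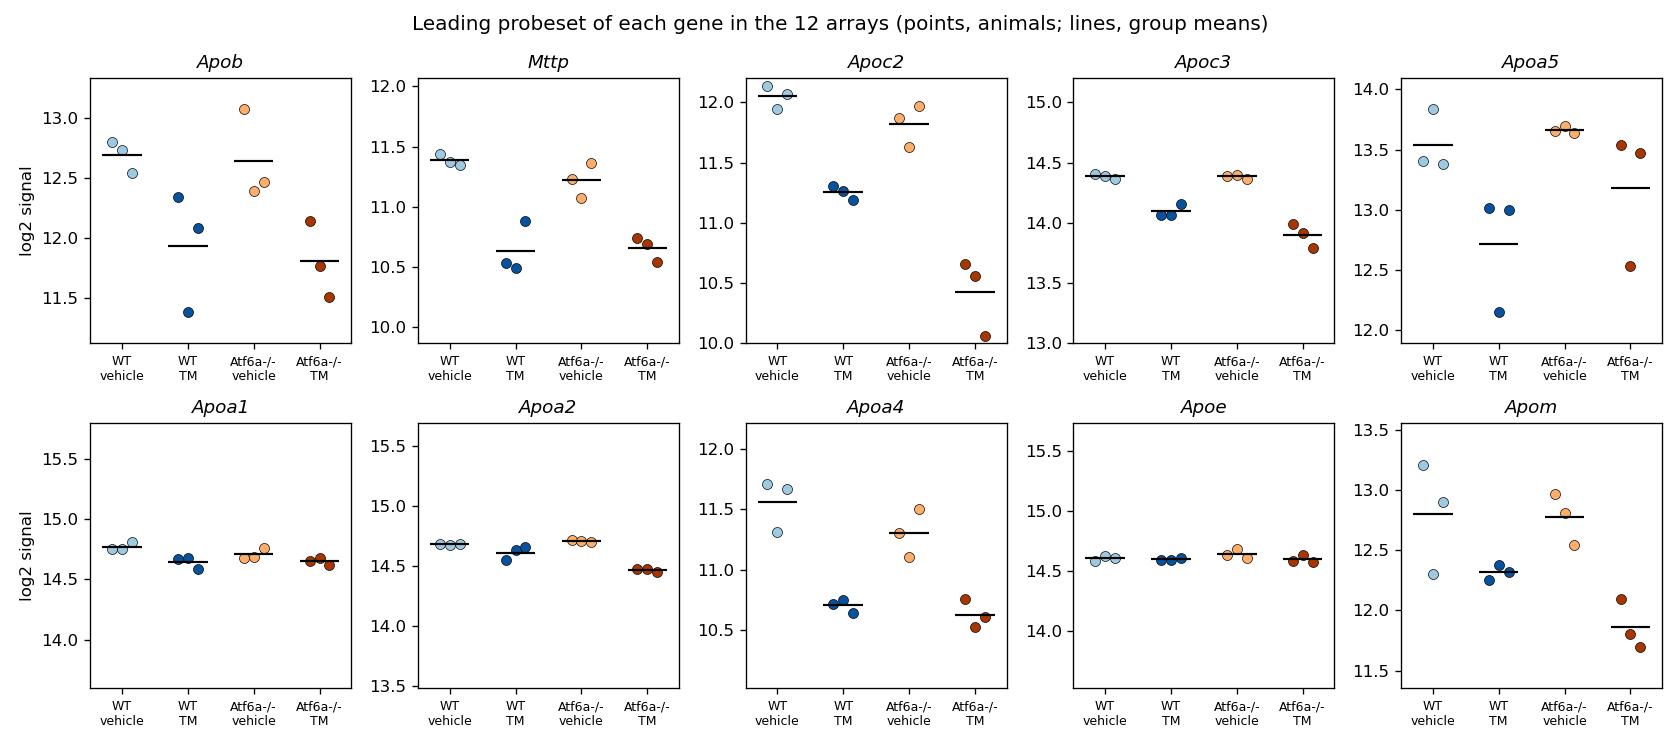
Log2 signal of the leading probeset of each of the 10 genes (vertical axis, the same span of 2.2 units in every panel) in the 12 arrays, grouped by genotype and treatment; points are animals and lines group means. Apob, Mttp, Apoc2 and Apoa4 sit lower in both TM groups than in the vehicle groups, whereas Apoa1, Apoa2 and Apoe stay near the top of the signal range in all groups.

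The core of VLDL assembly is formed by Apob and Mttp. Apob (chromosome 12, 7977629 to 8016839, GRCm38.p6), the structural protein of VLDL, read 12.80, 12.73 and 12.54 in wild-type vehicle livers and 12.34, 11.38 and 12.09 in wild-type TM livers. In Atf6a-/- animals it read 13.07, 12.39 and 12.46 with vehicle and 12.14, 11.77 and 11.51 with TM. The TM and vehicle livers did not overlap in either genotype, although the wild-type TM and Atf6a-/- vehicle animals were spread widely. The log2 fold change was -0.75 ± 0.24 (SE) in wild-type animals, 1.68-fold lower, with an adjusted p of 0.0511 that missed the threshold. Without wild-type TM animal 1 it was -0.95 (adjusted p = 0.0254) and was called, as it was without Atf6a-/- vehicle animal 1 or Atf6a-/- TM animals 1 or 3. Without wild-type TM animal 2, the lowest of its group, it was -0.48 (adjusted p = 0.200). Atf6a-/- animals gave -0.83 ± 0.24 with an adjusted p of 0.0231. That call was lost without Atf6a-/- vehicle animal 1 (-0.62, adjusted p = 0.101), without TM animal 2 (-0.81, 0.0536) or without TM animal 3 (-0.69, 0.094). The second Apob probeset was dimmer and varied more, at 8.67 ± 1.35 (SD, n = 3) in wild-type vehicle livers, and was called in neither genotype.

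Mttp (chromosome 3, 138089855 to 138143418), which loads lipid onto the apolipoprotein B chain, read 11.44, 11.38 and 11.35 in wild-type vehicle livers and 10.54, 10.49 and 10.88 in wild-type TM livers. In Atf6a-/- livers the values were 11.23, 11.08 and 11.36 with vehicle and 10.75, 10.69 and 10.55 with TM. Each TM animal lay below each vehicle animal of both genotypes. The log2 fold change was -0.75 ± 0.12 (adjusted p = 0.000607) in wild-type animals and -0.56 ± 0.12 (adjusted p = 0.0031) in Atf6a-/- animals. The second value is 1.48-fold and so stayed just under the required size, which it passed without Atf6a-/- vehicle animal 2 (-0.64) or TM animal 1 (-0.61). The other Mttp probeset gave -0.62 (adjusted p = 0.00394) and -0.44 (adjusted p = 0.0216). Its partner in the transfer complex, protein disulfide isomerase, is encoded by P4hb, which had values of 0.58 in wild-type (adjusted p = 0.00025) and 0.29 in Atf6a-/- animals (adjusted p = 0.0173), both under 1.5-fold.

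Apoc2, Apoc3 and Apoa5 encode the proteins that set the activity of lipoprotein lipase. Apoc2 (chromosome 7, 19671579 to 19677941), the activator of the lipase, read 12.14, 11.94 and 12.07 in wild-type vehicle livers and 11.31, 11.27 and 11.19 in wild-type TM livers. It read 11.87, 11.63 and 11.97 in Atf6a-/- vehicle livers and 10.66, 10.56 and 10.06 in Atf6a-/- TM livers. The Atf6a-/- TM livers were therefore the lowest of the 4 groups, with no overlap with wild-type TM livers, while both vehicle groups overlapped. The fall with TM was 1.74-fold in wild-type animals (-0.80 ± 0.14, adjusted p = 0.00192) and 2.63-fold in Atf6a-/- animals (-1.40 ± 0.14, adjusted p = 1.95e-05). It was the only one of the 10 genes called also between the genotypes under TM, where 1.53% of all genes were called lower and 2.89% higher in Atf6a-/- livers. That difference was 1.77-fold (-0.83 ± 0.14, adjusted p = 0.00624).

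Apoc3 (chromosome 9, 46233050 to 46235636), which restrains the lipase and hepatic clearance, moved less but evenly. Its signal was 14.41, 14.38 and 14.36 in wild-type vehicle livers and 14.07, 14.07 and 14.16 in wild-type TM livers. In Atf6a-/- livers it was 14.39, 14.40 and 14.37 with vehicle and 13.99, 13.91 and 13.79 with TM. No TM animal reached a vehicle animal, and the Atf6a-/- TM livers lay below the wild-type TM livers. The log2 fold changes of -0.29 ± 0.08 (adjusted p = 0.026) and -0.49 ± 0.08 (adjusted p = 0.000663) passed the p threshold but were 1.22-fold and 1.40-fold, too small to be called. Between genotypes under TM the difference was -0.20 (95% confidence interval -0.37 to -0.02, adjusted p = 0.256).

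Apoa5 (chromosome 9, 46268608 to 46271921), a plasma protein that promotes lipolysis, was the most uneven of the group. Its values were 13.41, 13.83 and 13.38 in wild-type vehicle livers, 13.02, 12.15 and 13.00 in wild-type TM livers, 13.65, 13.70 and 13.64 in Atf6a-/- vehicle livers, and 13.54, 12.53 and 13.47 in Atf6a-/- TM livers. TM animal 2 of each genotype was the lowest of its group, and only the second of these arrays carried Y-linked transcripts. TM and vehicle livers did not overlap in either genotype, but the log2 fold changes of -0.82 ± 0.27 (adjusted p = 0.0544) and -0.48 ± 0.27 (adjusted p = 0.212) were not called. Without Atf6a-/- TM animal 2 the spread shrank and the wild-type value of -0.82 was called (adjusted p = 0.0152). Without TM animal 2 of the same genotype, the wild-type change was -0.54 and the Atf6a-/- change -0.16.

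Of the HDL apolipoproteins, Apoa4 was called lower with TM in both genotypes and Apom in Atf6a-/- animals, and the brighter Apoa1, Apoa2 and Apoe in neither. Apoa4 (chromosome 9, 46240844 to 46243458), a lipid-transport protein of HDL and chylomicrons, read 11.71, 11.32 and 11.67 in wild-type vehicle livers and 10.72, 10.75 and 10.64 in wild-type TM livers. It read 11.31, 11.11 and 11.51 in Atf6a-/- vehicle livers and 10.76, 10.52 and 10.61 in Atf6a-/- TM livers. Both TM groups overlapped each other and lay below all vehicle livers. TM lowered it 1.82-fold in wild-type (-0.86 ± 0.13, adjusted p = 0.000434) and 1.60-fold in Atf6a-/- animals (-0.68 ± 0.13, adjusted p = 0.00159). The second probeset gave -0.83 and -0.58, and the latter fell short of 1.5-fold, as did the leading probeset without Atf6a-/- vehicle animal 3 (-0.58).

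Apom (chromosome 17, 35128997 to 35131801), the HDL carrier of sphingosine-1-phosphate, read 13.21, 12.30 and 12.90 in wild-type vehicle livers and 12.25, 12.38 and 12.32 in wild-type TM livers. In Atf6a-/- livers it read 12.97, 12.81 and 12.55 with vehicle and 12.10, 11.80 and 11.70 with TM. Wild-type vehicle animal 2 lay within the TM range, so the wild-type groups overlapped, whereas the Atf6a-/- groups did not. The lowest vehicle value of each genotype came from the array with Y-linked transcripts. The log2 fold change was -0.48 ± 0.20 (adjusted p = 0.118) in wild-type animals, -0.73 (adjusted p = 0.00511) without vehicle animal 2, and -0.28 (adjusted p = 0.405) without vehicle animal 1. Atf6a-/- animals gave -0.91 ± 0.20 (adjusted p = 0.00398), and the second probeset was also called there (-0.76).

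**Figure D2:**
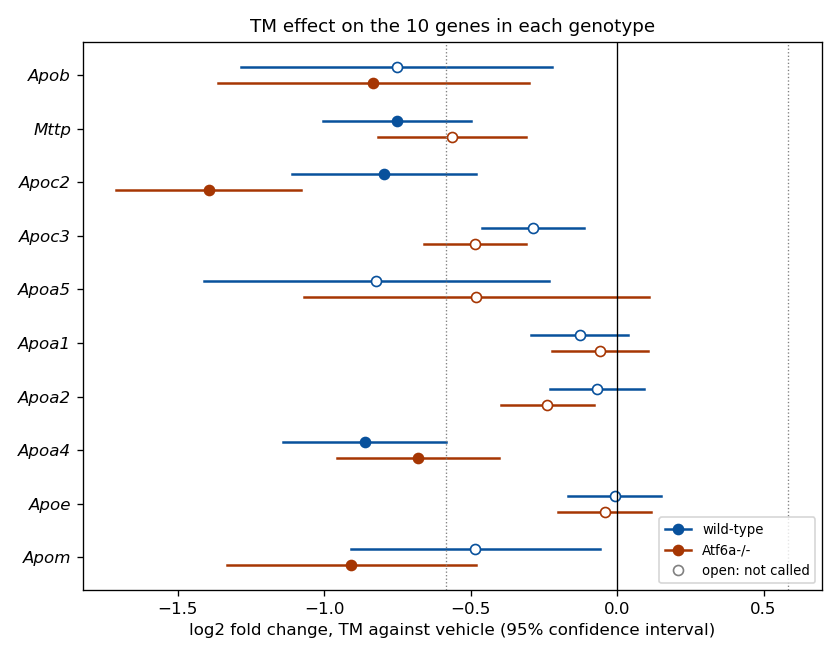
Log2 fold change of TM against vehicle (horizontal axis) with its 95% confidence interval for the 10 genes in wild-type (blue) and Atf6a-/- (brown) animals; filled points were called, and dotted lines mark 1.5-fold. Every point lies below 0, from -0.01 for Apoe in wild-type to -1.40 for Apoc2 in Atf6a-/- animals.

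Apoa1 (chromosome 9, 46228630 to 46230469), the main protein of HDL, had group means of 14.77 ± 0.03, 14.64 ± 0.05, 14.71 ± 0.05 and 14.65 ± 0.03 (SD, n = 3) in wild-type vehicle, wild-type TM, Atf6a-/- vehicle and Atf6a-/- TM livers. Its 4 probesets gave log2 fold changes between -0.15 and -0.04, none of them called. Apoa2 (chromosome 1, 171221564 to 171226379), the second HDL protein, had means of 14.68 ± 0.0046, 14.61 ± 0.06, 14.71 ± 0.01 and 14.47 ± 0.01 in the same order. Its change of -0.24 ± 0.07 in Atf6a-/- animals had an adjusted p of 0.029 and was 1.18-fold. Apoe (chromosome 7, 19696244 to 19701310), a receptor ligand made by hepatocytes and by macrophages, had means between 14.60 and 14.64 in all 4 groups. Its log2 fold change was -0.01 (95% confidence interval -0.17 to 0.15) in wild-type and -0.04 (-0.20 to 0.12) in Atf6a-/- animals. Macrophage and Kupffer cell markers were called lower in 0 of 7 cases in wild-type and in 3 of 7 in Atf6a-/- animals (Adgre1, Csf1r and Marco), against 6.9% and 8.21% of all genes. The log2 of the summed linear signals of these markers was 12.78 to 13.65 in wild-type vehicle, 12.90 to 13.10 in wild-type TM, 12.86 to 13.50 in Atf6a-/- vehicle and 12.35 to 12.93 in Atf6a-/- TM livers. Their part in the Apoe value was not tested. Apoa4, Apob and Mttp are also made by enterocytes, and of 4 enterocyte markers Vil1, Lct and Alpi lay below the array median in every group, while Fabp2 was called lower in both genotypes (-1.52 and -2.12).

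The 4 brightest genes had the smallest changes in wild-type animals, whereas in Atf6a-/- animals Apoc3 (-0.49) was close to the dimmer Apoa5 (-0.48). The highest value on any array lay between 14.90 and 14.97, and Apoa1, Apoa2, Apoc3 and Apoe had means of at least 14. Of the 41 genes at that brightness, 0 were called in either direction in either genotype, and the median size of change was 0.07 in wild-type and 0.10 in Atf6a-/- animals. Among the 1923 genes with means from 10 to 14, 12% and 19.3% were called lower and the median sizes were 0.37 and 0.46. The largest fall among the 41 genes with TM in Atf6a-/- animals was that of Apoc3. Whether the upper end of the signal range limited the changes read for these 4 genes was not tested. The 17 measured genes for other abundant secreted proteins of hepatocytes, such as albumin (Alb), transthyretin (Ttr) and the fibrinogen chains, behaved alike, with 0 called in any comparison.

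**Figure D3:**
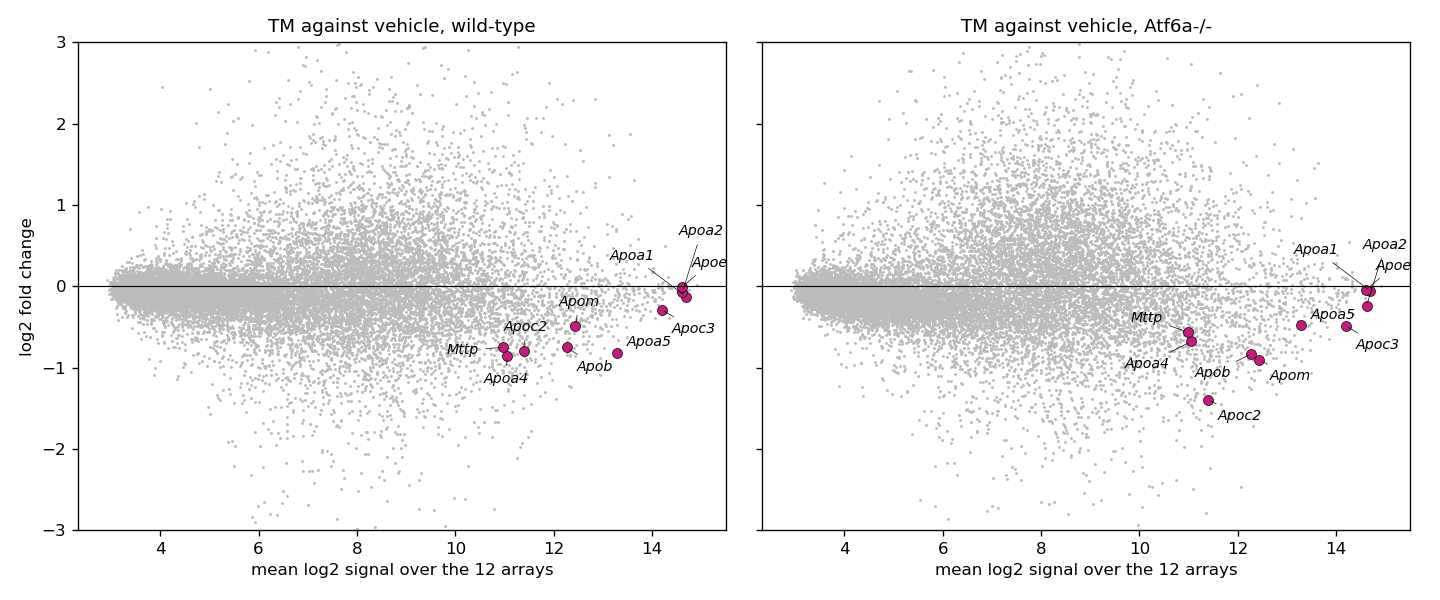
Mean log2 signal over the 12 arrays (horizontal axis) against the log2 fold change of TM over vehicle (vertical axis) in wild-type (left) and Atf6a-/- animals (right); grey points are the genes, pink points the 10 genes named, and genes beyond 3 in either direction lie outside the panels. The range of changes narrows at the right edge, where Apoa1, Apoa2, Apoe and Apoc3 stand.

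Several of these genes are neighbours. Apoa1, Apoc3, Apoa4 and Apoa5 lie in this order on chromosome 9, with 2580, 5207 and 25149 bases between them. Along this row the wild-type log2 fold changes were -0.13, -0.29, -0.86 and -0.82, and the Atf6a-/- ones -0.06, -0.49, -0.68 and -0.48. Only Apoa4 was called. On chromosome 7 the order is Apoc2, Apoc4, Apoc1 and Apoe. Apoc2 and Apoc4 are 142 bases apart, and RefSeq also lists a read-through gene over both, so RNA of that transcript could bind either probeset. Apoc4 changed by -0.28 (adjusted p = 0.032) and -0.38 (adjusted p = 0.00398), against -0.80 and -1.40 for Apoc2. Apoc1 changed by -0.14 and -0.25, and Apoe by -0.01 and -0.04. Of 10 non-apolipoprotein genes around both clusters 0 were called lower with TM in either genotype, against 6.9% and 8.21% of all genes. Tomm40, a mitochondrial import channel next to Apoe, was higher in both genotypes (0.86 and 0.85). Zpr1 and Bud13, beside Apoa5, were called higher in Atf6a-/- animals (0.89 and 0.73).

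**Figure D4:**
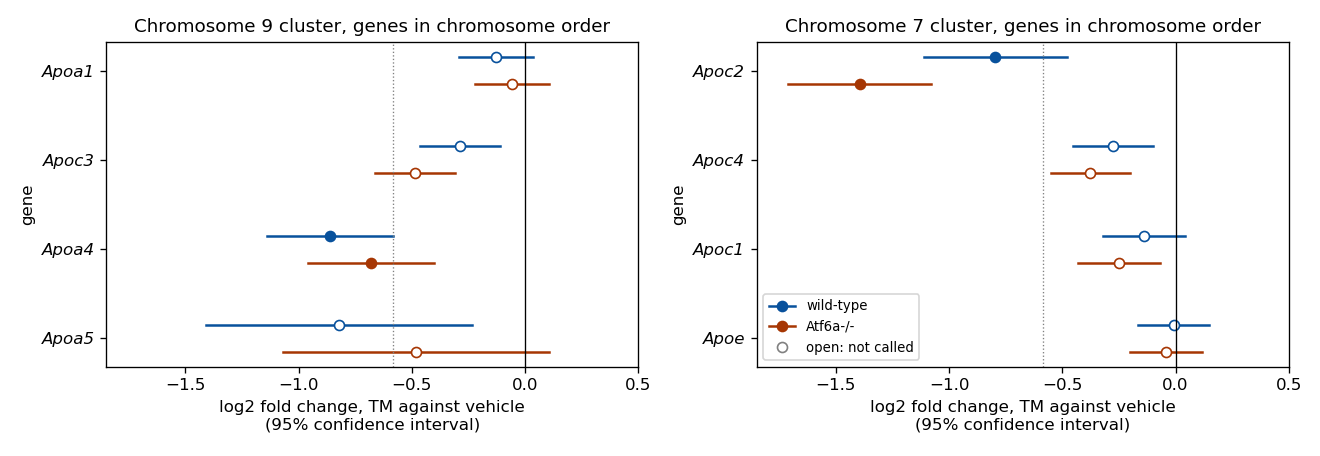
Log2 fold change of TM against vehicle (horizontal axis) with its 95% confidence interval for the genes of both clusters, listed in chromosome order (vertical axis), in wild-type (blue) and Atf6a-/- (brown) animals; filled points were called and dotted lines mark 1.5-fold. Apoc2 and Apoa4 lie lower than the brighter Apoe and Apoa1, which are near 0. In wild-type animals Apoa5 (-0.82) lies close to Apoa4 (-0.86).

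Under vehicle none of the 10 genes was called between the genotypes. Log2 differences of Atf6a-/- from wild-type livers ranged from -0.26 for Apoa4 (95% confidence interval -0.54 to 0.02) to 0.12 for Apoa5 (-0.47 to 0.71). By limma's test 0% of all genes were called in either direction, and 0 of the 10 genes had an unadjusted p below 0.05, as did 3.59% of all probesets. Under TM the 9 genes other than Apoc2 differed by -0.45 (Apom, -0.88 to -0.03) to 0.46 (Apoa5, -0.13 to 1.05), and none was called. Apom was lower in every Atf6a-/- TM liver than in any wild-type TM liver, as were Apoc2, Apoc3 and Apoa2. Apom, Apoc3 and Apoa2 had adjusted p-values of 0.295, 0.256 and 0.418 by limma's test. The share of all genes separated in this way was not counted. Apoa2 also separated the genotypes under vehicle, with a log2 difference of 0.03.

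The response to TM was compared between genotypes as the difference of the log2 fold changes, Atf6a-/- minus wild-type. By limma's test 0 of the 10 genes were called, against 0.748% of all genes lower and 1.06% higher, and 1 of the 10, Apoc2, had an unadjusted p below 0.05 (11.1% of all probesets). Its difference was -0.60 ± 0.20 (95% confidence interval -1.04 to -0.15, adjusted p = 0.246). Apom followed with -0.42 (-1.02 to 0.18), and Apoa5 had the highest value, 0.34 (-0.49 to 1.17). Leaving out 1 array at a time moved the Apom value from -0.63 (without wild-type vehicle animal 1) to -0.17 (without wild-type vehicle animal 2), and the Apoa5 value from 0.06 (without wild-type TM animal 2) to 0.67 (without Atf6a-/- TM animal 2). For Mttp, Apob and Apom, called in 1 genotype each, no difference in response was called.

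A list of 12 further genes, mostly apolipoproteins, was examined, of which 11 were measured. It also held Apobr, which encodes a receptor for apolipoprotein B, and Apool, which encodes a mitochondrial protein. In wild-type animals 3 were called lower, Apol7a (-2.21), Apon (-1.79) and Apof (-0.61), and 0 higher, against 6.9% and 8.92% of all genes. The Atf6a-/- animals had 6 called lower, namely Apon (-3.08, adjusted p = 3.03e-06), Apol7a (-2.48), Apof (-1.19), Saa4 (-1.07), Clu (-0.61) and Apool (-0.59). Of all genes, 8.21% were called lower in Atf6a-/- animals. The 11 genes had median log2 fold changes of -0.30 in wild-type and -0.59 in Atf6a-/- animals, the latter being the value of Apool. Apon, a secreted protein of plasma lipoproteins, was also lower in Atf6a-/- than in wild-type livers under TM (-1.14, adjusted p = 0.0219). The falls of Apon and Apol7a exceeded those of all 10 genes in size.

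The next list held 18 genes that act with apolipoprotein B and Mttp in assembling and exporting VLDL. In wild-type animals 5 were called lower and 3 higher, against 6.9% and 8.92% of all genes. The lower ones were Ces1d (-2.75, adjusted p = 7.66e-07), a lipase that mobilises stored triglyceride, Tm6sf2 (-1.04), which promotes lipidation, Apobec1 (-0.80), which edits the Apob transcript, Sort1 (-0.75), a sorting receptor, and Cideb (-0.66), a lipid droplet protein needed for lipidation. The higher ones were Surf4 (1.67), a cargo receptor for ER export, Mia3 (0.85), which serves the export of large cargo, and Plin2 (0.64), which coats lipid droplets. In Atf6a-/- animals the same 3 were higher and 4 were lower, Ces1d (-3.55), Tm6sf2 (-1.66), Cideb (-1.03) and Apobec1 (-0.89). Of all genes, 13.1% were higher and 8.21% lower there. The medians of the list were -0.18 and 0.11. None of the 18 was called between the genotypes.

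Among 9 measured enzymes and plasma regulators of lipoproteins, Angptl4, an inhibitor of lipoprotein lipase, was higher in both genotypes (2.07 and 2.62). Lipg, the endothelial lipase, was lower in both (-2.65 and -2.87). Its means with TM, 4.86 and 4.60, lay below the lowest array median of 4.98, so the size of its fall is uncertain. Lpl, lipoprotein lipase itself, was called lower in wild-type animals (-1.72, adjusted p = 0.0282) and had a value of -1.18 (adjusted p = 0.094) in Atf6a-/- animals.

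Of 26 measured regulators of these genes, 10 were called lower and 1 higher in wild-type animals, against 6.9% and 8.92% of all genes. In Atf6a-/- animals 8 were lower and 6 higher, against 8.21% and 13.1%. Between genotypes under TM, 7 were called higher and 0 lower in Atf6a-/- livers, against 2.89% and 1.53%. The difference in response was called higher for 3 and lower for 0, against 1.06% and 0.748%. Ppargc1a fell by 2.90 and 3.03 and Ppara fell by 1.67 and 1.65 on the log2 scale, a coactivator and a nuclear receptor of fatty acid oxidation. The means of Ppargc1a with TM, 4.46 and 4.42, lay below the lowest array median of 4.98, so the size of its fall is uncertain. Ppargc1b, a coactivator of lipogenesis and VLDL secretion, was called lower in wild-type animals (-1.80) but not in Atf6a-/- animals (-0.71, adjusted p = 0.0628). A call in 1 genotype alone is not a test of a difference between genotypes. Cebpa fell by 1.13 and 0.86. Srebf1, the lipogenic factor, fell by 3.68 and 2.09, and its response differed between genotypes (1.59, adjusted p = 0.0293). Hnf4a, an activator of most of the 10 genes, had a value of 0.36 (adjusted p = 0.145) in wild-type animals and was called higher in Atf6a-/- animals (0.94, adjusted p = 0.000603). Between genotypes under TM it differed by 0.41 (adjusted p = 0.202) and was not called. Rora was higher in both genotypes (1.32 and 2.30).

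**Figure D5:**
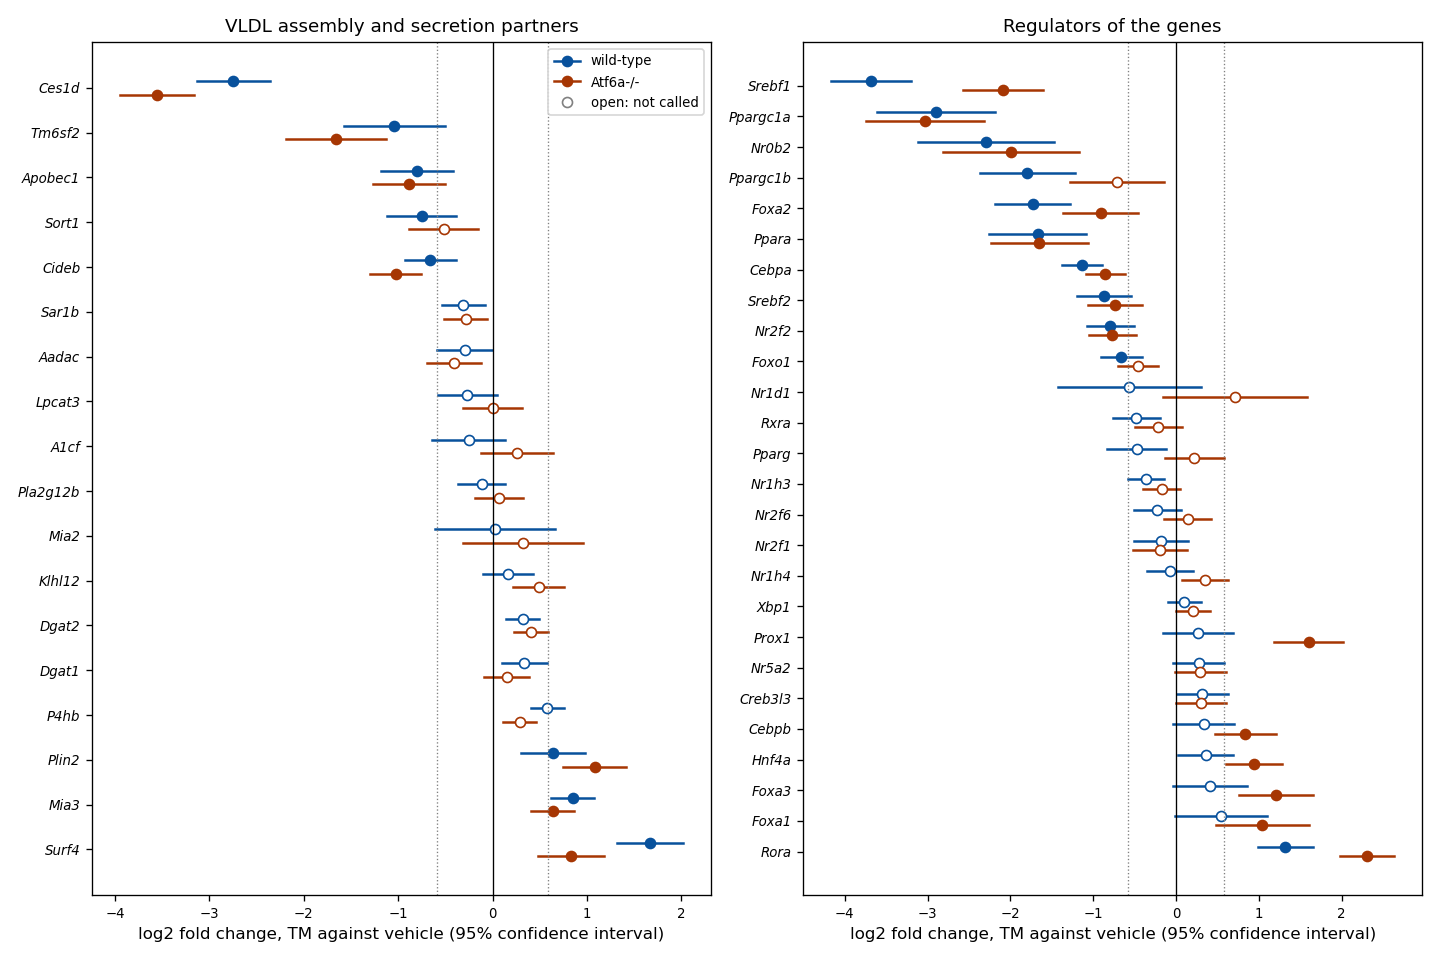
Log2 fold change of TM against vehicle (horizontal axis) with its 95% confidence interval for 18 genes of VLDL assembly and export (left) and 26 regulators (right), ordered by the wild-type value, in wild-type (blue) and Atf6a-/- (brown) animals; filled points were called and dotted lines mark 1.5-fold. Ces1d and Srebf1 stand lowest and Surf4 and Rora highest in wild-type animals.

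Over the 12 arrays, the genes whose signal followed each of these most closely were named by Pearson's r among 18183 other genes. These values include the shift between groups that all TM responders share, and arrays of 1 group are not independent conditions, so they are descriptions. For Apoc2 they were Cnih4 (0.98), Rgn (0.97) and Bola3 (0.97), and for Apom Smtnl2 (0.98), Mmrn2 (0.97) and Abca3 (0.97). For Mttp they were Tmtc4 (0.97), St13 (0.96) and Cfhr2 (0.96), and for Apoa4 Chst14 (0.97), Abca8a (0.97) and Cmtm6 (0.97). Apob was followed by Cav1 (0.95), Fam189b (0.93) and Ehhadh (0.92). For Apoa5 the closest were Gphn (0.94), Fam107b (0.91) and Nudt6 (0.90), and for Apoc3 Isca2, Abhd17a and Tmem176a (each 0.99). For the bright genes they were Slc22a7 (0.96), Haus4 (0.94) and 5430401F13Rik (0.94) for Apoa1, Lcmt1 (0.97), Ntan1 (0.97) and Abhd17a (0.97) for Apoa2, and 1500002F19Rik (0.92), Ccin (0.92) and Edar (0.88) for Apoe. The ranking depended on the measure. By Spearman's rho, only Cav1 for Apob and Smtnl2 for Apom stayed among the 3 closest genes. For Apoc3, Isca2, Abhd17a and Tmem176a then ranked 620, 377 and 1115, and for Apoc2, Rgn ranked 592. After subtraction of the group means, pairs of the 10 genes correlated between -0.78 (Apoa4 with Apoe) and 0.62 (Apoc3 with Mttp) over the 12 arrays, so animals of 1 group did not rise or fall together in all of them.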

How the data were processed

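Liver RNA of 12 mice was measured on Affymetrix Mouse Genome arrays, and group, dose and time came from the labels. The authors deposited log2 values made by RMA with the affy package, named in the labels beside limma without versions. RMA corrects background, quantile normalizes and summarises probes. The values were used as deposited, without 64 control probesets. Probesets were named by the platform annotation, and 932 that name several genes were not used for a gene. R 4.3.3 and limma 3.58.1 fitted a mean per group to all 12 arrays with moderated variances (8 residual and 4.25 prior degrees of freedom), and p-values were adjusted by Benjamini-Hochberg over 45037 probesets. Intervals are 95% confidence intervals. The procedure was tested on simulated data. The genes, gene lists and tests were chosen with earlier results of these data known. All 10 genes were to be named, and of each list up to 4 called genes by the size of limma's statistic, with Hnf4a, Ppara, Ppargc1a, Ppargc1b, Cebpa and P4hb; Tomm40, Zpr1, Bud13, Rora and further called members were added after their values were seen. An exact permutation test of 3 against 3 animals cannot give a p below 0.1 and was not used. Promoter sequences are RefSeq's (GRCm38.p6). Precision is limited by 3 arrays per group.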

Additional observations from a re-analysis of the deposited data

How the results depend on the processing

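The calls rest on 3 animals per group, and several values lay close to 1.5-fold or to the p threshold, so counts of genes called lower with TM moved with the settings. In wild-type animals the count of 3 was 5 with only probesets above the median tested, 5 with unadjusted p-values, 0 at 2-fold, and 5 when the 4 arrays that read Y-linked genes were dropped, an alternative added after seeing the data. Over all probesets, 2231 were lower in the main setting, 2517 with unadjusted p-values, 841 at 2-fold and 2890 without the 4 arrays. Testing only probesets above the median gave 2179. With the methods' t-test after adjustment, Mttp lost its wild-type call (adjusted p = 0.0568), and 775 of all probesets were lower. In Atf6a-/- animals the count of 4 was 7 without a fold threshold, 1 at 2-fold (Apoc2) and 2 with the methods' t-test after adjustment (Apoc2 and Apom). The counts over all probesets were 2680 in the main setting, 6169 without a fold threshold, 1011 at 2-fold and 1322 with the adjusted t-test. Under TM, the 1 gene lower in Atf6a-/- livers became 0 at 2-fold and 0 with the adjusted t-test, and the 0 higher became 1 (Apoa5) without the 4 arrays. The adjusted t-test called 0 of all probesets in either direction there, so that loss is not particular to Apoc2. Over all probesets the main setting had 865 higher and 537 lower. At 2-fold 283 were lower, and without the 4 arrays 1274 were higher. For the difference in response 0 became 1 (Apoc2) with unadjusted p-values, where 750 of all probesets were lower, against 262 in the main setting. Centring on Btf3 and Ppia turned the split of that comparison over all probesets from 295 higher and 262 lower to 169 and 259. Animal numbers do not pair the animals (correlations of same-numbered deviations from -0.476 to 0.394); with animal number as a replicate block 4 genes were lower in wild-type (Apob added, -0.75), 4 in Atf6a-/- animals and 1 between genotypes under TM. Of all probesets, 2212, 2654 and 523 were lower with that block, against 2231, 2680 and 537 in the main setting.

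Values that changed sign were all small and uncalled, and the cause was not tested. For TM in wild-type animals, Apoe was 0.075 with quantile normalization, 0.086 with cyclic loess and 0.0022 without the 4 arrays, and Apoa2 was 0.026 with cyclic loess. For TM in Atf6a-/- animals, Apoe was 0.032 with quantile normalization and 0.073 with cyclic loess, and Apoa1 0.062 with cyclic loess. Between genotypes under TM, Apoa1 was -0.0015 with quantile normalization, Apoe 0.018 with cyclic loess and 0.026 centred on Btf3 and Ppia, Mttp -0.00036 with cyclic loess and -0.040 without the 4 arrays, and Apob 0.094 without them. Under vehicle, Apob was 0.012 centred on Btf3 and Ppia, 0.042 as the mean of its probesets and 0.061 without the 4 arrays. Apoc3 was 0.059 centred on Btf3 and Ppia, 0.00014 with the sex covariate and 0.0087 without the 4 arrays, and Apom was 0.029 centred on Btf3 and Ppia. The difference in response of Apob was 0.033 without the 4 arrays. Leaving out 1 array at a time gave ranges across 0 for Apoe with TM in wild-type animals (-0.019 to 2.6e-05). Between genotypes under TM they were -0.023 to 0.023 for Apoa1, -0.41 to 0.074 for Apob, -0.019 to 0.012 for Apoe and -0.046 to 0.15 for Mttp. Under vehicle they were -0.26 to 0.077 for Apob, -0.011 to 0.011 for Apoc3 and -0.28 to 0.17 for Apom, and for the difference in response of Apob -0.36 to 0.13.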
